A study of Arabidopsis thaliana with 33 samples.

Results

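Sample 5 of the ms1 flower series was studied here, a pool of floral buds from ms1 mutant plants compared with buds of the same position from wild-type Arabidopsis thaliana on 3 two-colour arrays. The arrays were chosen by their labels alone, and they are 3 of the 21 arrays of the ms1 series and 3 of 33 arrays in all. Each array held ms1 RNA in one dye and wild-type RNA in the other, with the dyes switched in set 2, where ms1 carried Cy5. In the other sets ms1 carried Cy3. The labels state that tissue of 50 plants was collected for each genotype and sample, from plants under constant light at 20 °C, and that the 3 sets were independent collections made on different days. The series divided the flowers of an inflorescence into 7 samples by their order on the stem. Sample 1 was described as flowers of stage 13, samples 2 to 6 as pairs of successive buds going inward, and sample 7 as the remaining buds with the meristem. Whole ms1 and nzz inflorescences, each compared with wild type on 4 arrays, serve as further comparisons below. The inflorescence samples held the meristem with all buds up to stage 13, with the mutant in each dye on 2 of the 4 arrays. They were fitted together with 4 arrays of early buds of a further mutant, ap3, against wild type, whose ratios are not reported here.

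MS1 encodes a PHD-finger protein that acts in the tapetum, the secretory cell layer that lines the anther locule and feeds the developing microspores. The tapetum supplies wall material and coat lipids to pollen, and it breaks down once that work is done. Plants without MS1 make no viable pollen, whereas SPL/NZZ acts earlier and is needed to form the sporogenous cells themselves. A ratio in whole buds therefore mixes petals, carpels, anther walls and pollen, and fewer cells of a type cannot be told apart from less RNA in each cell.

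Ratios are given as log2 of ms1 over wild type, so that a negative value is lower in ms1. The direction is likely and not settled, because the deposited values do not name their numerator. It rests on the study's statement that ms1 lacks viable pollen, together with the side on which pollen genes lie, so low pollen genes helped to set the sign and cannot count as evidence for it. Were the sign the other way, all genes called lower would be higher and the reverse, with the same numbers called. Whether the values were already turned for the dye switch is not stated either, and they were read as turned. This choice matters more: read as plain ratios of the dyes, they gave 39 called probes in sample 5. None of those was called under the reading used here. The base of the deposited logarithm is inferred as well; with base 2 every log2 value would be 3.32 times too large, and fold values would shrink accordingly. No probe names the MS1 locus, so the mutated gene could not be used to check the labels.

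The numbering of the samples also needs a caution. VGD1, which encodes a pollen-tube pectin methylesterase, had ratios of -0.60, 0.26, -0.64, -3.65, -4.20, -4.20 and -3.73 in samples 1 to 7. ACT12, an actin expressed in pollen, had ratios of 0.45, -1.75, -2.73, -2.24, -3.75, -3.53 and -3.34. Both were thus near 0 in the sample described as stage 13 flowers and far from 0 in the sample described as the smallest buds. Sample 1 is a weak guide, because its arrays correlated at r of only -0.61, -0.08 and -0.04 with each other. Genes of mature pollen would be looked for in the oldest flowers, so the values run against the described order, and whether the numbers were reversed was not tested. The samples are called by their numbers only, and neither "older" nor "younger" is read from them.

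A large set of genes differed between ms1 and wild-type buds in sample 5, with more of them lower than higher in ms1. By limma, fitted to all 21 series arrays with a dye term, 350 of 26078 probes passed a Benjamini-Hochberg adjusted p of 0.05 (1.34%). Of these, 206 were lower in ms1 (0.79% of all probes tested) and 144 were higher (0.552%). The lower calls had a median log2 ratio of -2.03 and the higher calls a median of 1.56, against a median of 0.06 over all probes tested. Without a test, 333 probes read at least 2-fold lower on each of the 3 arrays (1.29%) and 131 at least 2-fold higher (0.507%). Among the calls, at least 8-fold differences numbered 70 lower and 18 higher. All 350 probes had 1 sign on all 3 arrays, which the size of a call largely requires. The array annotation names 193 of them (119 lower, 74 higher), and the other 157 are counted without a name.

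Those counts changed with the arrays used and with the way they were fitted. Without set 1, set 2 or set 3 of sample 5, the count was 217, 148 or 177, of which 203, 141 and 167 were among the 350. With the set number as a replicate block it was 578, including all 350, and with the 3 arrays fitted alone it was 0 by limma (1495 probes had an unadjusted p under 0.05). The 3 arrays had medians of -0.01, 0.04 and -0.01 in sets 1 to 3, and 2.81% to 3.57% of their values lay at the deposited limit, a log2 ratio of 6.64 in either direction, where a value is only a bound. These limited values followed the dye: 97.1% of them were higher in ms1 on set 2, where ms1 carried Cy5, against 3.14% and 2.17% on sets 1 and 3, where it carried Cy3. Over the 16600 probes never missing or at the limit on any array, sets 2 and 3 correlated at r = 0.54, sets 1 and 3 at 0.24 and sets 1 and 2 at 0.13. Over all probes, limited ones included, the arrays of opposite dye correlated negatively, with r of -0.36 between sets 2 and 3 and -0.18 between sets 1 and 2, against 0.33 between sets 1 and 3. Over the 16600 probes, the 3 arrays of sample 1 correlated negatively throughout, with r of -0.61 to -0.04. Sets 1 and 2 also correlated negatively in samples 2, 6 and 7, at -0.16, -0.11 and -0.21. Without the sample 1 arrays in the fit, 313 probes were called in sample 5, 286 of them among the 350.

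The lowest named ratios without a limited array are given first for genes of lipid-related families. Family names of genes given here by locus are background knowledge and do not come from the files. AT1G23240, of the caleosin family of oil-body proteins, had log2 ratios of -6.04, -5.21 and -6.22 in sets 1 to 3. Its fitted ratio, which balances the dyes, was -5.48 ± 1.14 (SE, n = 3 arrays, 44.8-fold lower, adjusted p = 0.0263). The SE of a series ratio takes its spread from all 21 series arrays, and not from the 3 arrays of sample 5 alone. AT5G07600, of the oleosin family that includes proteins of the pollen coat, had ratios of -4.83, -4.88 and -5.71 (fitted -5.06 ± 0.71, adjusted p = 0.00137). EXL5, an extracellular lipase of a family found in the pollen coat, had ratios of -5.31, -5.19 and -5.60. It was 42.0-fold lower in ms1 (-5.39 ± 0.90, adjusted p = 0.00688), and its 3 arrays lay closer together than those of AT1G23240.

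Pectin is the gel-like part of the cell wall that pollen tubes remodel as they grow. The pectin enzymes described next were grouped by family after their values had been seen, and uncalled members of these families were not counted. VGDH1, a relative of VGD1, had ratios of -6.36, -4.87 and -5.19 (fitted -5.17 ± 0.95, adjusted p = 0.0116). VGD1 itself had -4.66, -3.66 and -4.89 and the lowest adjusted p of the sample, shared with 5 other named genes (-4.20 ± 0.32, 18.4-fold lower, adjusted p = 1.12e-05). AT3G07820, a polygalacturonase, had ratios of -5.89, -4.32 and -5.41. It was 33.9-fold lower (-5.08 ± 0.79, adjusted p = 0.00301), and AT5G07410, another pectin methylesterase, was 31.1-fold lower (-4.96 ± 0.81, adjusted p = 0.00435). For these 4 enzymes set 2, with ms1 in Cy5, was the least negative array each time. AT3G01270, of the pectate lyase family, read -6.64 at the limit in set 1, -4.38 in set 2 and -6.34 in set 3, so its fitted ratio of -5.90 ± 0.66 is partly a bound (adjusted p = 0.000168).

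The other genes among the 15 lowest covered secreted, signalling and desiccation-related proteins. AT5G45880, related to the pollen allergen Ole e 1, had a log2 ratio of -4.88 ± 0.74 (adjusted p = 0.00272). AT2G16750, of a protein kinase family, had ratios of -5.88, -4.33 and -3.93 (fitted -4.67 ± 0.90), a wider spread than that of EXL5. AT5G44400, of the berberine bridge enzyme family, had ratios of -4.05, -4.52 and -5.84 (fitted -4.61 ± 0.87). The dehydrin gene listed as LEA (AT2G21490), of a family that protects cells from drying, stood at -4.61 ± 0.79, and AT1G54860, the last of the 15, at -4.27 ± 0.91 (adjusted p = 0.0313). The remaining 4 were AT3G28830 (-5.30), AT1G26720 (-4.86), AT1G47980 (-4.77) and AT3G28750 (-4.75).

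**Figure D1:**
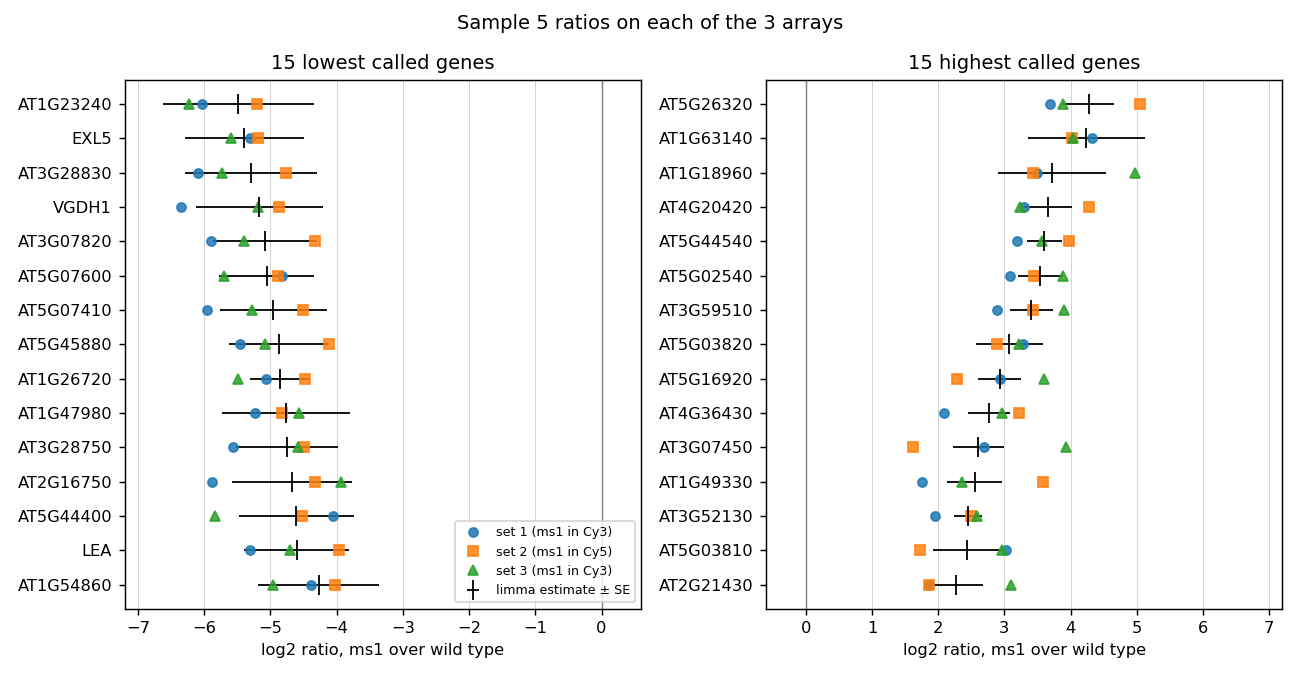
Log2 ratios (ms1 over wild type, x axis) of the 15 lowest (left) and 15 highest (right) called named genes of sample 5 on each of the 3 arrays, with no array at the limit; symbols stand for the sets, and black ticks and lines for the limma estimate ± SE. All 3 arrays lie on the same side of 0 for every gene, and most lower genes lie farther from 0 than most higher ones.

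Among named genes with no array at the limit, those higher in ms1 reached smaller ratios than those lower in ms1. The highest of them, AT5G26320, of the TRAF-like family, had log2 ratios of 3.69, 5.05 and 3.88 in sets 1 to 3 (fitted 4.27 ± 0.38, 19.3-fold higher, adjusted p = 3.46e-05). AT1G63140, of the O-methyltransferase family, had 4.32, 4.02 and 4.04 (fitted 4.24 ± 0.89, adjusted p = 0.0271). AT1G18960, a MYB-like gene, stood at 3.72 ± 0.81 (adjusted p = 0.0365). Every array of these 3 genes read above 3.

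The families of the next genes were likewise read off after the calls. AT4G20420 and AT5G44540 resemble TAP35/TAP44, proteins named from the tapetum, and both rose. AT4G20420 had ratios of 3.29, 4.28 and 3.23 (12.6-fold higher, 3.66 ± 0.36, adjusted p = 5.6e-05), and AT5G44540 had 3.20, 3.98 and 3.56 (12.2-fold higher, 3.60 ± 0.27, adjusted p = 1.12e-05). AT3G07450 and AT3G52130 encode lipid-transfer-like proteins, small secreted carriers of lipids. AT3G07450 had 2.69, 1.61 and 3.94, a broad spread around 2.60 ± 0.39, whereas AT3G52130 had 1.96, 2.49 and 2.59 around 2.45 ± 0.21 (adjusted p = 3.33e-05). The neighbouring GDSL-type lipase genes AT5G03820 and AT5G03810 stood at 3.08 ± 0.50 and 2.43 ± 0.51 (adjusted p of 0.00439 and 0.0281).

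The remaining genes of the 15 highest were enzymes and wall proteins. AT5G02540, a short-chain dehydrogenase, rose 11.6-fold (3.54 ± 0.34), AT3G59510, with leucine-rich repeats, rose 10.6-fold (3.41 ± 0.32), and AT5G16920, a fasciclin-like protein, rose 7.62-fold (2.93 ± 0.33). AT4G36430, a class III peroxidase, stood at 2.76 ± 0.32, and AT2G21430, a papain-type protease, at 2.26 ± 0.42 (adjusted p = 0.0112). AT1G49330 had ratios of 1.75, 3.58 and 2.37, with set 2 the highest (2.55 ± 0.42). One raised gene rested on limited values: AT5G26130 read 6.64 at the limit in sets 1 and 2 but 0.05 in set 3 (fitted 4.80 ± 1.11, adjusted p = 0.0494). Besides AT3G01270, the lower genes AT3G01240, AT4G18920 and AT3G12860 each had 1 array at the limit as well. AT4G18920 read -6.64 in set 1 and -2.37 and -2.40 in sets 2 and 3, and with limited values set to missing its fitted ratio of -3.86 became -2.38 and was no longer called (adjusted p = 0.205). AT3G12860 read -6.64 in set 3 and -2.90 and -2.43 in sets 1 and 2, and its ratio of -3.79 became -2.67 in the same way (adjusted p = 0.00863). AT3G01240, at -5.88, became -5.41 and kept its call.

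Called genes that carry a symbol in the RefSeq gene table were 24 in number, 19 lower and 5 higher, and were picked out for their symbols after the values had been seen. Besides the pollen genes above, the serine carboxypeptidase-like genes SCPL49 and scpl48 both fell, by 1.57 each (SE 0.12 and 0.16, adjusted p of 1.12e-05 and 6.31e-05). The β-glucosidases BGLU41 and BGLU15 fell by 2.40 and 2.06, and the tetraspanins TET11 and TET15, membrane proteins, by 3.04 and 2.05. CML42, a calmodulin-like protein, stood at -1.60 ± 0.28, IAA30, of the auxin-response Aux/IAA family, at -1.41 ± 0.28, and SPCH, a bHLH factor that starts the stomatal lineage, at -1.29 ± 0.23 (adjusted p = 0.00903). The 5 higher genes were PPDK, pyruvate orthophosphate dikinase (1.54 ± 0.26), the glycosyltransferase UGT87A2 (1.23 ± 0.28), the mitochondrial NAD(P)H dehydrogenase NDB4 (1.08 ± 0.25), the endoglucanase GH9B15 (1.01 ± 0.19) and the sugar transporter SWEET1 (0.56 ± 0.09). For PPDK and UGT87A2 set 2 stood well above sets 1 and 3, at 2.52 against 0.80 and 0.65 for PPDK.

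Genes of known anther and pollen function were followed through lists, whose members were mostly absent from the named probes. Of 16 mature pollen genes listed, 9 were measured and 3 fell (VGDH1, VGD1 and ACT12), where 0.79% of all probes fell. Pollen genes helped to set the sign of the ratios, and the lists were chosen with earlier results known. Neither the direction of these calls nor their share can therefore count as evidence. ACT12 had ratios of -4.09, -3.31 and -3.81 (13.5-fold lower, -3.75 ± 0.33, adjusted p = 3.33e-05). The other 6, the pollen extensins LRX8 to LRX11, the tubulin TUA1 and the receptor kinase ANX1 (measured on 2 arrays), were not called and had fitted ratios between 0.01 and 0.66. The list median of 0.20 therefore had the opposite sign to its 3 called members. Of the 6 uncalled genes, LRX8 alone was called lower in sample 6 (-4.23, adjusted p = 0.025), and none was called in sample 7.

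Few regulators of the tapetum were measured. Of 4 measured among 9 tapetal transcription factors, bHLH010 was the only one to fall (0.79% of all probes fell), with ratios of -0.62, -1.26 and -0.48 (-0.86 ± 0.15, 1.81-fold lower, adjusted p = 0.00784). Its relatives bHLH089 and bHLH091 stood at -0.84 ± 0.24 (adjusted p = 0.16) and 0.13 ± 0.28. AMS, a bHLH factor upstream of pollen wall genes, had ratios of 1.14, 1.19 and 2.56 and did not pass (1.69 ± 0.58, adjusted p = 0.338). In sample 7 AMS was called lower (-4.32, adjusted p = 0.00936), while it stood at 1.88 in sample 6. The 4 measured of 14 tapetum effectors all had negative ratios with a median of -2.17, and none was called. The widest were ATA27, a β-glucosidase-like tapetum protein (-3.89 ± 1.30, adjusted p = 0.305), and SHT, an acyltransferase of spermidine conjugates (-3.17 ± 1.74, adjusted p = 0.923). Of 2 measured pollen coat genes 1 fell, EXL5 (0.79% of all probes fell), and EXL2 stood at 0.22 ± 1.38. The limit given for the mature pollen list holds for this list too.

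Pollen MADS-box factors and genes of meiosis had no member called. The 7 measured pollen factors had a median of -0.60. AGL104 had ratios of -2.31, -0.91 and -2.47 (-1.75 ± 0.46, adjusted p = 0.103), AGL66 stood at -0.89 ± 0.24 (adjusted p = 0.13) and AGL94 at -2.58 ± 1.13 (adjusted p = 0.636). Alone among the 7, AGL66 was called lower in sample 6 (-1.58, adjusted p = 0.00529) and in sample 7 (-1.54, adjusted p = 0.00668). The 7 measured meiosis genes had a median of 0.08, with ZYP1b, a protein of the synaptonemal complex, at -0.66 ± 0.18 (adjusted p = 0.132). Of 4 measured early anther regulators none was called, and SPL stood at -0.46 ± 0.17 (adjusted p = 0.415). SWEET8, a sugar transporter of the exine list, stood at 0.29 ± 0.64, and no gene of callose and microspore release was measured.

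Lists for other tissues and responses had no member called in sample 5. Photosynthesis genes had a median of 0.01 over 2 genes, with RCA at -0.03. The meristem signal CLV3 stood at 0.08, the carpel factor SPT at -0.05 and the ovule gene INO at 0.29. The nectary transporter SWEET9 stood at 0.91 ± 1.07, on the strength of set 2 alone (1.78, against 0.07 and 0.09). The mitotic kinases AUR1 and AUR2 stood at -0.26 and -0.22, and the dehiscence polygalacturonase ADPG1 at 0.57 ± 1.32. Of 2 flavonoid genes DFR was the lower (-1.36 ± 1.34), and of 4 stress genes KIN1 (-0.71 ± 0.21, adjusted p = 0.166) and THI2.1 (1.65 ± 1.19) lay farthest apart. No petal or stamen identity gene was measured, so the share of stamen tissue in the pools could not be checked with these markers.

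**Figure D2:**
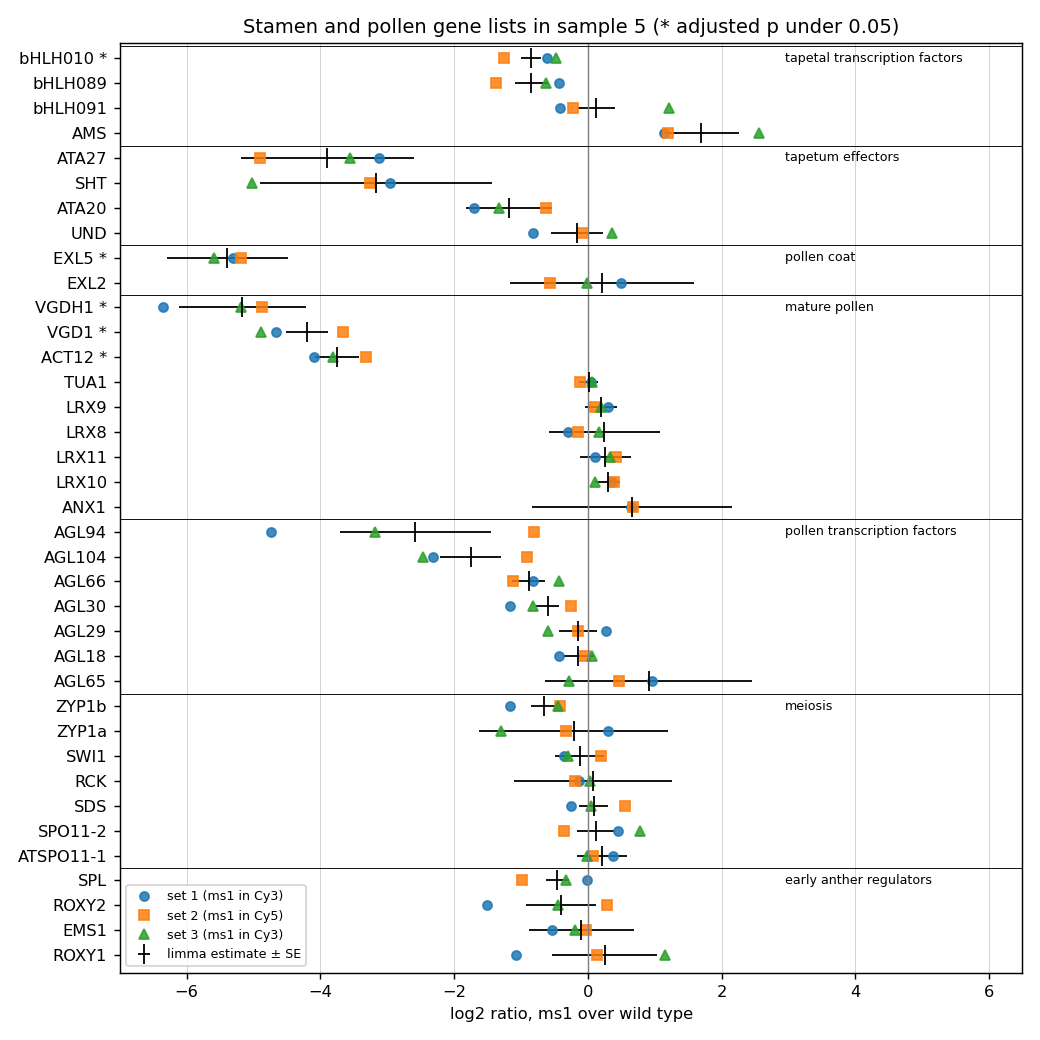
Log2 ratios (ms1 over wild type, x axis) of the measured members of 7 stamen and pollen gene lists in sample 5; symbols stand for the 3 sets, black ticks and lines for the limma estimate ± SE, and an asterisk marks an adjusted p under 0.05. The 5 genes so marked are bHLH010, EXL5, VGDH1, VGD1 and ACT12, and the extensins LRX8 to LRX11 lie near 0.

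Genes lower in sample 5 differed in where else in the series they were called, a sorting by calls and not by a test of the difference. Of the 206 lower probes, 79 were also called lower in sample 3 or 4 but in neither 6 nor 7, 50 were called lower in sample 6 or 7 but in neither 3 nor 4, and 13 in both. The other 64 were called lower in none of these 4 samples. Among the 15 lowest genes these numbers were 6, 5, 1 and 3. All samples share 1 fit and 1 dye term per probe, and arrays of the same set share a collection day. Their calls are therefore not independent of each other, although the labels give each sample its own wild-type RNA. Residuals of arrays of the same set but different samples had a median r of 0.45, against -0.02 between sets. Overlaps between series samples, given below, are set beside shares over all probes that make no allowance for this.

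Single genes show these courses. AT1G26720, a gene of unassigned function here, had ratios of -3.72, -5.65, -5.64, -4.86, -0.40 and -0.04 in samples 2 to 7, and was called in samples 2 to 5. EXL5 and AT5G07600 were likewise called in samples 3, 4 and 5, and they stood at -2.84 and -1.43 in sample 6. AT3G07820, the polygalacturonase, had -2.90, -1.81, -0.62, -2.11, -5.08, -5.32 and -5.10, and was called in samples 5 to 7. VGDH1, AT5G07410 and AT3G28750 were called in samples 5 to 7 as well. AT1G23240, LEA and AT1G54860 were called in sample 5 alone among the 7, although AT1G23240 still stood at -4.06 in sample 7 (adjusted p = 0.238).

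Genes higher in sample 5 were also called higher in several other samples, which differed in how many probes they called. Of the 144 higher probes, 85 were called higher in sample 4 (59.0%, where 0.617% of all probes were), and these are 52.8% of that sample's higher calls. Sample 3 called 64 of them (44.4%, background 0.702%), which are 35% of its higher calls. Sample 6 called 16 (11.1%, background 0.169%), 36.4% of its 44 higher calls, and sample 7 called 2 (1.39%, background 0.0153%) of its 4. Of the 206 lower probes, sample 4 called 86 lower (41.7%, background 0.652%), which are 50.6% of that sample's lower calls. Sample 3 called 64 (31.1%, background 0.833%), sample 6 62 (30.1%, background 0.713%, and 0.882% called there in both directions), sample 7 47 (22.8%, background 0.552%) and sample 2 22 (10.7%, background 0.376%). In sample 1, where 2 probes were called in all (0.00767%), none of the 350 was called.

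Median ratios of the called probes peaked at sample 5, where they were chosen. The lower probes had medians of -0.04, -0.09, -0.33, -1.15, -2.03, -0.82 and -0.60 in samples 1 to 7, and the higher probes 0.09, 0.27, 0.74, 1.27, 1.56, 0.48 and 0.14. The most negative of the 7 ratios lay in sample 5 for 111 of the 206 lower probes and the most positive in sample 5 for 80 of the 144 higher ones. Among the 15 highest genes, AT5G02540 reached 4.26 and 4.50 in samples 3 and 4, above its 3.54 in sample 5. AT5G16920 was the reverse, at 0.29 in sample 3, 1.59 in sample 4, 2.93 in sample 5 and 1.57 in sample 6.

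**Figure D3:**
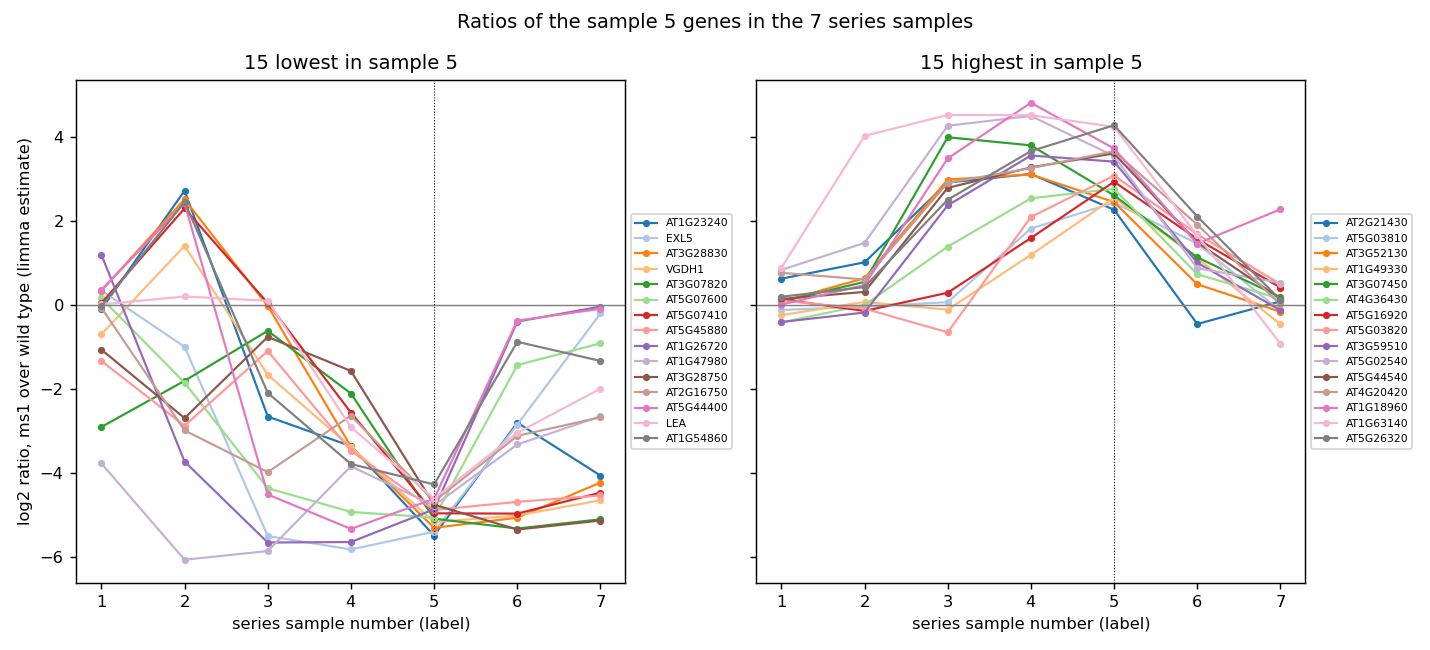
Fitted log2 ratios (ms1 over wild type, y axis) of the 15 lowest (left) and 15 highest (right) called genes of sample 5 in series samples 1 to 7 by label (x axis), with a dotted line at sample 5. On the left some genes return to near 0 in samples 6 and 7 and others stay low; on the right most are high from sample 3 or 4 and lie between -0.93 and 0.53 in sample 7, except AT1G18960 at 2.28 there.

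The direct test between neighbouring samples asked which ratios in sample 5 differ from those in sample 4. Only 2 of 26071 probes passed (0.00767%), both lower in sample 5 (521 at an unadjusted p under 0.05). HHP2, a heptahelical membrane protein, had ratios of -3.15, -2.27 and -2.67 in sets 1 to 3 of sample 5, against 1.42, 1.59 and 1.49 in sample 4. The difference was -4.19 ± 0.40 (adjusted p = 0.00103), and the 2 samples did not overlap. In samples 1 to 7 its ratios were 0.08, 1.54, 2.44, 1.57, -2.62, -2.36 and -1.84. It was called higher in ms1 in samples 2, 3 and 4 and lower in samples 5, 6 and 7, and among the named genes called in sample 5 it alone was called with opposite signs in different samples.

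AT1G29140, a relative of Ole e 1, was the other gene that differed from sample 4. It had ratios of -3.77, -3.25 and -3.29 in sample 5, against 0.01, 0.13 and -0.45 in sample 4 (difference -3.34 ± 0.37, adjusted p = 0.00404). It stayed low, at -3.79 in sample 6 and -3.30 in sample 7. Both genes passed again with each sample 4 array left out in turn, and without set 2 or set 3 of sample 5. Without set 1 of sample 5 the count was 1, without set 3 it was 4, and with values at the limit treated as missing it was 12.

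Against sample 6, 32 of 26065 probes differed (0.123%), 16 with the lower and 16 with the higher ratio in sample 5 (0.0614% each), and 29 of them were also called in sample 5 itself. AT1G26720 differed most among the named lower genes, with -5.07, -4.48 and -5.49 in sample 5, against -0.79, 0.06 and -0.91 in sample 6 (difference -4.46 ± 0.62, adjusted p = 0.0169). AT4G37900, AT3G54530 and AT5G50780 differed by -3.31, -3.09 and -3.01, and the GDSL-type lipase AT1G20120 by -2.95. These 5 were also called lower in samples 3 and 4. AT4G24430, of the rhamnogalacturonate lyase family, had another course, at -0.63 in sample 4, -2.28 in sample 5 and -0.16 in sample 6 (difference from sample 6 -2.13 ± 0.34, adjusted p = 0.0238). Its difference from sample 4 was -1.65 and was not called.

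Genes higher in sample 5 than in sample 6 included AT5G44540 and AT3G52130. The TAP35/TAP44-like AT5G44540 had 3.20, 3.98 and 3.56 in sample 5, against 1.32, 0.79 and 2.26 in sample 6 (difference 2.12 ± 0.38, adjusted p = 0.049). AT3G52130 differed by 1.96, the acyltransferase-family gene AT1G03390 by 1.92 and AT5G51950, of an oxidoreductase family, by 1.91. The largest positive differences among named genes were of genes not called in sample 5 and low in sample 6. AT4G27580 had -0.08, -0.56 and 1.15 in sample 5, against -4.45, -3.77 and -3.88 in sample 6 (difference 4.20 ± 0.65, adjusted p = 0.0196). AT2G40680 had 0.98, 1.58 and 0.20, against -4.01, -2.09 and -6.64 at the limit (difference 5.17 ± 0.85, adjusted p = 0.0349).

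The sample 6 comparison leaned on single arrays. Without set 2 or set 3 of sample 5 the count fell to 4 or 1, and without set 1 or set 2 of sample 6 to 2 or 5, while without set 3 of sample 6 it was 83. None of the 350 probes called in sample 5 differed from both neighbours, so no gene was shown to be particular to sample 5.

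**Figure D4:**
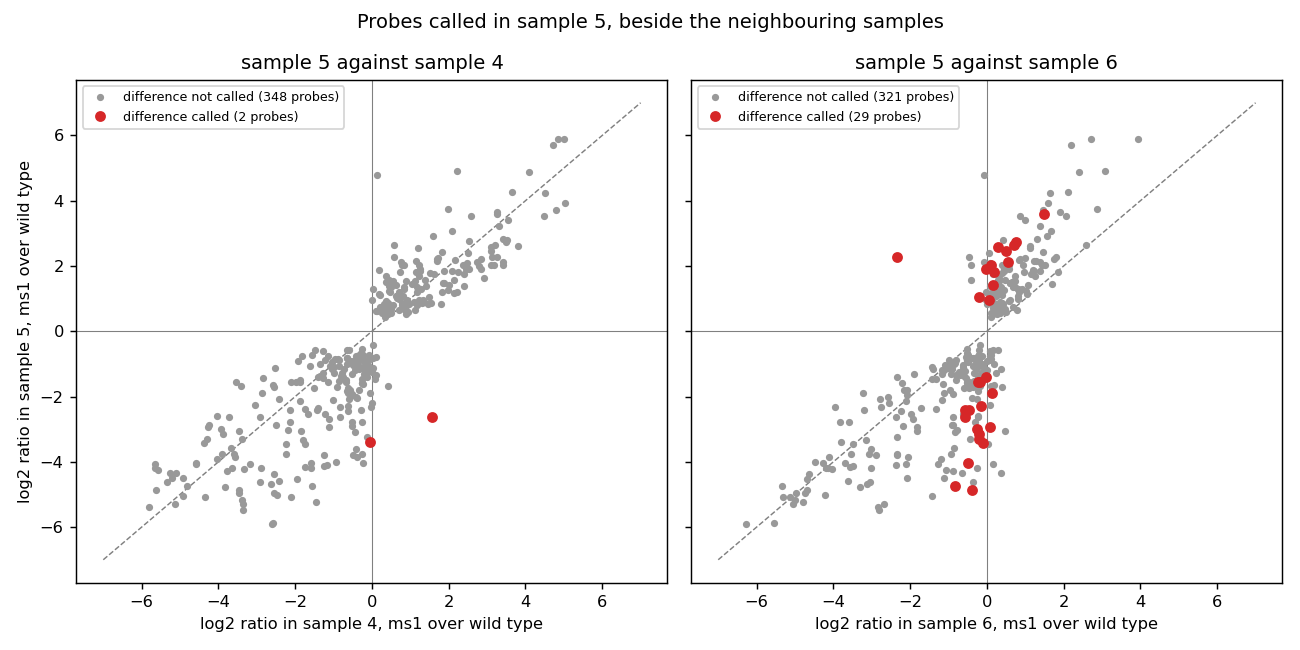
Log2 ratios (ms1 over wild type) of the 350 probes called in sample 5 (y axis) against their ratios in sample 4 (left, x axis) and sample 6 (right, x axis); the dashed line marks equal ratios, and red points are probes whose difference was called. The 2 red points on the left are HHP2 and AT1G29140, and many of the 29 on the right lie near 0 in sample 6.

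Whole ms1 inflorescences, measured on 4 separate arrays and fitted apart, shared many of the lower genes and had 2.18% of probes called in both directions together. Of the 206 lower probes, 114 were also called lower there (55.3%, background 1.74%), and these are 25.1% of the 454 lower calls of the inflorescences. The 15 lowest genes were all called lower, with AT1G26720 at -4.71 ± 0.56 and VGDH1 at -4.22 ± 0.41. Of the 144 higher probes, 36 were called higher (25.0%, background 0.434%), or 31.9% of 113. Only AT5G02540, AT4G20420 and AT3G52130 of the 15 highest genes were among them, at 2.52, 2.56 and 1.53. The median ratio in inflorescences was -1.19 for the lower probes and 0.68 for the higher ones. HHP2, with opposite signs within the series, stood at -0.56 ± 0.12 (adjusted p = 0.0557) in the whole inflorescence.

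In nzz inflorescences, where sporogenous cells fail to form, most of the lower genes were again lower, and some of the raised genes were lower as well. These inflorescences had 15.2% of all probes called in both directions together. Of the 206 lower probes, 175 were called lower in nzz (85%, background 6.91%), 9.72% of its 1801 lower calls. Of the 144 higher probes, 35 were called lower in nzz (background 6.91%) and 4 higher (background 8.32%), and most were not called. The median ratio in nzz was -1.63 for the lower probes and -0.31 for the higher ones. Among the 15 highest genes 9 were called lower in nzz and none higher. AT5G26320 stood at 4.27 in sample 5, against -4.47 in nzz inflorescences. Likewise AT5G16920 stood at 2.93 in sample 5, against -3.91 in nzz, AT3G07450 at 2.60 against -3.23, and AT5G44540 at 3.60 against -2.46. In whole ms1 inflorescences these 4 genes stood at 2.24, 1.12, 1.52 and 1.88 in the same order. None of them was called there (adjusted p of 0.174, 0.288, 0.169 and 0.0972). The 6 of the 15 highest genes not called in nzz, among them AT5G02540, AT1G63140 and the GDSL pair, had ratios between -0.88 and 0.43 there. Whether nzz and ms1 ratios of the same gene differ was not tested across the 2 fits.

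**Figure D5:**
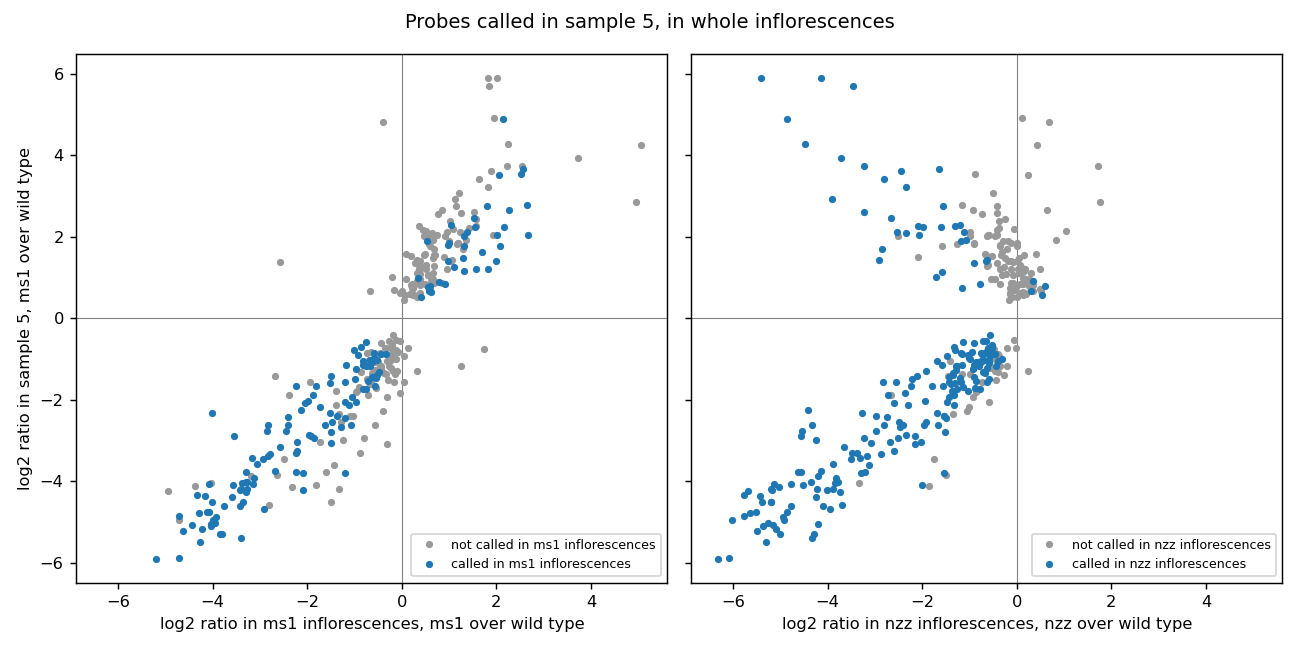
Log2 ratios of the 350 probes called in sample 5 (y axis, ms1 over wild type) against their ratios in ms1 inflorescences (left, ms1 over wild type) and nzz inflorescences (right, nzz over wild type); blue points were called in the inflorescences. Raised probes lie mostly right of 0 on the left, while a group of 35 raised probes was called lower in nzz on the right.

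Called genes often lay near each other on the chromosomes. Of 192 called named genes that could be placed on the RefSeq gene order, 53 (27.6%) had another called gene within 10 protein-coding genes, and 1703 of 13203 uncalled named genes (12.9%) had a called gene that near. They formed 24 groups, 14 of 1 direction and 10 of mixed direction. VGDH1, VGD1 and AT2G47050 lie side by side and fell by 5.17, 4.20 and 3.45. The pectin methylesterase genes AT5G07410, AT5G07420 and AT5G07430 had ratios of -4.96, -1.88 and -2.77. AT3G28830, AT3G28750 and AT3G28810 stood at -5.30, -4.75 and -4.12, and AT3G01270 and AT3G01240 at -5.90 and -5.88. On the raised side, AT5G41450, AT5G41400 and AT5G41530 formed 1 group, at 1.82, 1.57 and 0.97. The lipase pair AT5G03820 and AT5G03810, given above, formed another. Neighbours of one family share sequence, and whether a probe also bound its neighbour's RNA was not tested. A mixed group held AT1G63060 (-4.15 ± 0.84) and the raised AT1G63140 (4.24).

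Of the 157 unnamed calls, 87 were lower and 70 higher, with ratios between -5.30 and 5.89. A pair of them was called with opposite signs within the series. One had ratios of 2.62 in sample 3, 3.26 in sample 4, 2.27 in sample 5, -2.35 in sample 6 and -3.17 in sample 7, all called. The other stood at 0.69 in sample 3 and -0.82 in sample 5. Among named genes with several probes, AT1G04090 (-1.79 and -0.73) and AT3G11950 (-0.66 and -0.05) each had 1 probe called and the other not.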

How the data were processed

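The authors deposited 1 table of normalized values for 33 two-colour arrays, read here as log10 ratios per probe because no value lies beyond 2 or -2. The scanner and the steps of background correction and normalization are, in the sources used here, not given. Of its lines, 26090 gene probes were used and 450 control spots left out. Each value was converted to log2 and its sign turned to give ms1 over wild type. They were read as already turned for dye, a reading chosen with the data seen.

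Groups, sets and dyes came from the labels. The main test was limma 3.58.1 (R 4.3.3, statmod 1.5.0), lmFit and eBayes on the 21 series arrays, with 1 coefficient per sample and a dye term; errors are its SEs. A probe needed 2 of 3 values, and a call an adjusted p under 0.05, adjusted over every probe tested. The ms1 and nzz inflorescence arrays were fitted apart, in 1 fit of 12 arrays that also held 4 arrays of early ap3 buds, with 3 of 4 values needed. The ap3 arrays thus entered the spread and the dye term behind the inflorescence values. Between series samples, the difference of the ratios was tested in the same fit. In the series the dye term, called at 7178 probes, also separates set 2 from sets 1 and 3, and these cannot be told apart. Each series sample has 3 arrays, and array ratios have no count depth. What limits their precision was not tested.

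Probe names came from the array platform's annotation, brought up to date through RefSeq gene identifiers (assembly TAIR10.1); 13912 had a current locus (13698 loci). Named are the 15 lowest and 15 highest called genes with no array at the limit, up to 6 per direction with one, the list members with the lowest p, and up to 6 per direction in each contrast. The members and lists were chosen with earlier results of these data known.

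The labels tie each set to its own collection day. Residuals of arrays of the same set but different samples had a median r of 0.45 (43 of 63 pairs over 0.1), against -0.02 between sets. Alternatives changed the dye term, centring, scaling, limited and missing values, the reading of the values, the spread prior, the block and the arrays used. The procedure was tested on simulated data. The outcome is not given here and is not used as evidence for any call.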

Additional observations from a re-analysis of the deposited data

Results flagged for a closer look

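The listed differences between neighbouring samples drew attention because the test of the difference itself passed. Between samples 5 and 4, 2 probes differed, those of HHP2 (difference -4.19) and AT1G29140 (-3.34). HHP2 was called higher in ms1 in sample 4 and lower in sample 5.

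Between samples 5 and 6, 32 probes differed. The lowest named differences were those of AT1G26720 (-4.46), AT4G37900 (-3.31), AT3G54530 (-3.09), AT5G50780 (-3.01), AT1G20120 (-2.95) and AT4G24430 (-2.13). The highest were those of AT2G40680 (5.17), AT4G27580 (4.20), AT5G44540 (2.12), AT3G52130 (1.96), AT1G03390 (1.92) and AT5G51950 (1.91). AT2G40680 and AT4G27580 were not called in sample 5. No other part of the series was tested for such differences here.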

How the results depend on the processing

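The count of 350 calls in sample 5 stayed between 292 and 476 without the dye term, with arrays centred, with arrays centred and scaled, with limited probes left out, with 3 values required, with a robust spread prior and without the sample 1 arrays. It was 634 with values at the limit set to missing, 578 with the replicate block, 39 with values read as dye ratios (none shared with the 350) and 0 with the 3 arrays alone, and 148 to 217 without 1 set. The count of 2 against sample 4 became 12 with limited values set to missing, 3 with the block, 0 read as dye ratios (112 at an unadjusted p under 0.05) and 1 to 4 without 1 array. The count of 32 against sample 6 became 68, 41 and 0 in the same order (467 at an unadjusted p under 0.05), and 1 to 83 without 1 array. The causes were not tested.

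Of the 35 genes named for sample 5, 33 kept their call without the dye term, 35 with the block, 22, 16 and 21 without set 1, 2 or 3, 30 without the sample 1 arrays, and none alone or as dye ratios. The block ended the call of 1 of 12 genes named against sample 6 and of none named for sample 5 or against sample 4. Read as dye ratios, AT1G49330 (-0.016), AT5G26130 (-0.42) and the difference of AT5G44540 from sample 6 (-0.0059) changed sign. Leaving out sample 4, sample 6 or sample 1 arrays was chosen after seeing the data. The share of higher calls was 41.1%, and 35.5% to 44.7% under these settings apart from the dye-ratio reading (5.13%). A value at the limit is a bound, and 2.81% to 3.57% of each array's values lay there.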
